A study of Mus musculus with 45 samples.

Results

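Regulatory T cells (Tregs) labelled Het_Nrp1-, which came from B16 tumours of heterozygous mice and lack neuropilin-1 (Nrp1), were compared with Tregs from B16 tumours of wild-type mice, labelled WT. B16 is a transplantable mouse melanoma. The libraries were chosen by their titles, 5 for each group of the 45 in the series. The Het_Nrp1- libraries titled ds1 and 4 were nearly one library in their counts, with a chi-square per degree of freedom of 2.04, and were summed, which left 4 Het_Nrp1- samples (replicates 2, 3, ds2 and 4) and 5 WT samples (replicates 2, 3, ds1, ds2 and 4), or 9 of 41 samples. The comparison asks how Nrp1-deficient Tregs that shared a mouse with Nrp1-sufficient Tregs differ from Tregs of a mouse in which no Treg lacks Nrp1. Other groups are brought in only beside it: the Nrp1-sufficient Tregs of heterozygous tumours (labelled Het_WT, 4 samples), a set titled N whose genotype label reads as that of Het_Nrp1- (5 samples), effector T cells from tumours (5 samples) and Het_Nrp1- and WT Tregs of non-draining lymph nodes (4 and 5 samples). Per the labels' protocols each library held 5000 Tregs, sorted once (replicates 2, 3 and 4) or, as the ds names were read, sorted again (ds1 and ds2). The summed pair therefore mixes a title of each kind. The labels and protocols do not say which promoter drives the deletion, how old the mice were, or whether replicates came from separate animals. The p-values below therefore reflect scatter between samples, and that scatter may be technical. In the main test, the scatter behind each SE, interval and p-value was estimated from all 41 samples fitted together. It is thus not the spread of the 9 compared samples alone.

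Tregs depend on the transcription factor Foxp3 and hold back other T cells through inhibitory receptors, cytokines and consumption of interleukin-2. Nrp1 is a membrane co-receptor for semaphorins and vascular growth factors; on Tregs it binds Sema4a, which restrains the kinase Akt and leaves Foxo transcription factors active. The series takes its title from interferon-gamma, the cytokine of type 1 responses, and from fragility, a term for Tregs that keep Foxp3 but lose suppressive function.

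Total counts ran from 3561012 to 24736626 in the Het_Nrp1- libraries and from 4000583 to 24113709 in the WT libraries, with a count for 11713 to 16821 and 11290 to 20802 genes. WT replicate ds1 stood apart. Its log2 CPM (read counts scaled to a common library size, with TMM scaling to correct for composition) had a Pearson r across genes of 0.661 to 0.702 with the other WT samples, which had 0.819 to 0.905 among themselves, against 0.866 to 0.902 among the Het_Nrp1- samples. Between the Het_Nrp1- samples and the other 4 WT samples r was 0.818 to 0.926, so samples resembled each other across the groups as much as within them. The TMM scaling factor of ds1 was the lowest of its group in WT tumour samples (0.82) and in every other group with a ds1 sample. It was 0.79 in N and 0.69 in effector T cells of tumours. The Het_Nrp1- library titled ds1 went into the summed replicate 4, with a factor of 1.11. Only WT thus has a ds1 sample in this comparison. What sets the ds1 samples apart was not tested. WT replicate 3 held reads of the Y-linked gene Ddx3y (170.0 CPM) and 0.0739 CPM of Xist, the RNA that silences an X chromosome in females. Xist lay at 52.8, 131, 411 and 147 CPM in Het_Nrp1- and at 58.6 to 390.4 CPM in the other WT samples. Values without WT replicate ds1 or 3 are given beside the results they moved most.

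The samples carried the markers of their labelled cell type. Summed over its 7 members in the table, the T cell list ran from 5276 to 7114 CPM in Het_Nrp1- and 5537 to 7161 CPM in WT, and the Treg list from 3725 to 6405 CPM in Het_Nrp1- and 3550 to 8495 CPM in WT. Foxp3, the defining gene of the lineage, was low but present in all 9 samples and stood at 0.383 ± 0.695 CPM in effector T cells of tumours (SD, n = 5). Markers of melanoma cells and melanocytes varied most. Their sum was 19.7, 433, 32.2 and 2018 CPM in the Het_Nrp1- samples and 1364, 1718, 27.9, 6.79 and 4039 CPM in the WT samples, in the replicate order given above, which is kept throughout. It was low in both ds2 samples, in WT replicate ds1 and in Het_Nrp1- replicate 2, so it followed neither group nor sorting alone, and its 10 tested members all lay below 0 in Het_Nrp1- over WT (median log2 difference -1.24, none at p below 0.05). NK cell markers summed to 4.18 to 423 CPM in Het_Nrp1- and 2.55 to 193 CPM in WT, with Klra8 and Klra4 at 0 in all 9 samples. Dendritic cell markers summed to 16.2 to 455 CPM in Het_Nrp1- and 30.8 to 191 CPM in WT, macrophage and monocyte markers to 328 to 649.8 CPM in Het_Nrp1- and 434 to 720.2 CPM in WT, B cell and plasma cell markers to 11.5 to 60.1 CPM in Het_Nrp1- and 12.9 to 18.2 CPM in WT, and CD8 T cell markers to 31.5 to 124 CPM in Het_Nrp1- and 15.9 to 105 CPM in WT. Granulocyte markers stayed at 0.264 to 0.953 CPM in Het_Nrp1- and 0.849 to 8.32 CPM in WT, fibroblast markers at 1.17 to 3.19 CPM in Het_Nrp1- and 1.7 to 44.6 CPM in WT and endothelial markers at 18.4 to 69.6 CPM in Het_Nrp1- and 14.6 to 71.1 CPM in WT. The part of these markers in the results that follow was not tested, and in sorted bulk samples fewer cells of a type and less RNA per cell cannot be told apart.

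**Figure D1:**
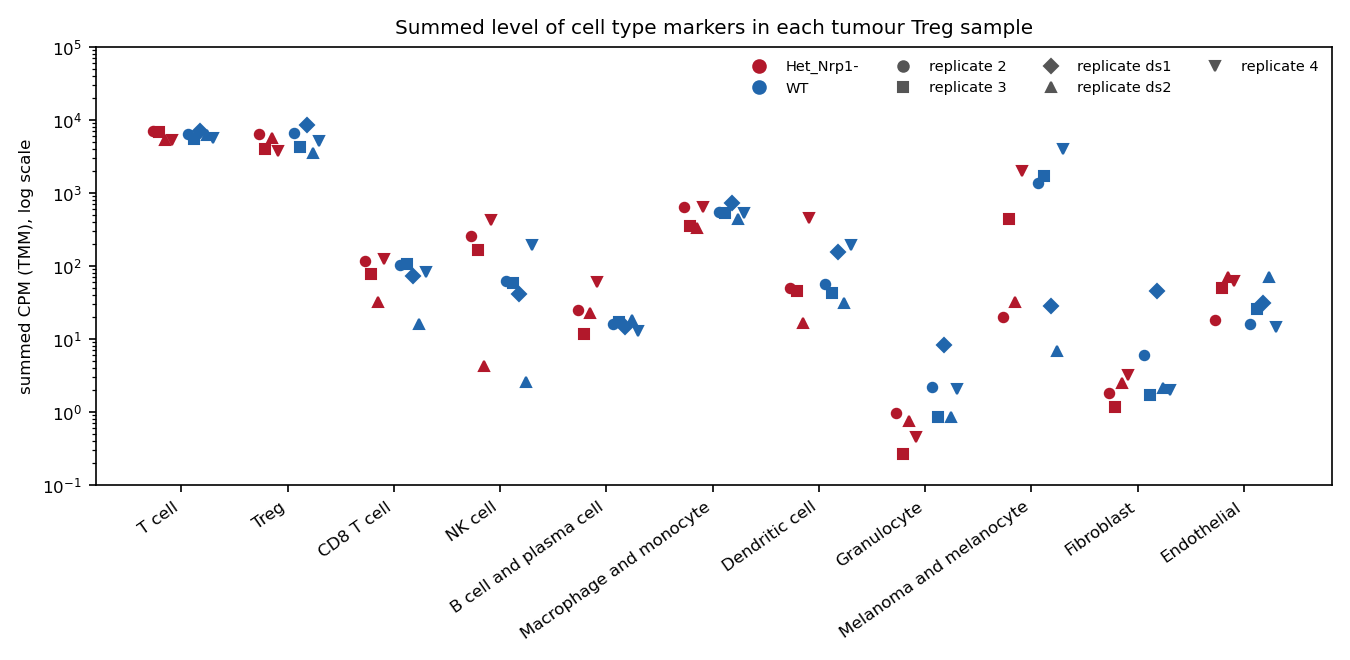
Summed CPM (vertical, log scale) of 11 cell type marker lists in each tumour Treg sample, Het_Nrp1- in red and WT in blue, 1 symbol shape per replicate. T cell and Treg markers are high in all 9 samples, while melanoma markers range from 19.7 to 2018 CPM in Het_Nrp1- and from 6.79 to 4039 CPM in WT.

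No gene passed the test between Het_Nrp1- and WT tumour Tregs, and a difference of either sign was left unresolved for most of them. Of 14668 genes tested with edgeR's quasi-likelihood test, 0 (0%) passed a Benjamini-Hochberg adjusted p of 0.05. All adjusted p-values were 1 to within rounding. At an unadjusted p below 0.05, 60 genes were higher (0.409% of those tested) and 281 lower (1.92%). These 341 genes together were a smaller share of those tested than the 0.05 expected where no gene differs. Of the 281 lower genes, 251 averaged below 10 CPM, 75 had no count in any Het_Nrp1- sample, and in 132 the highest WT value was that of replicate ds1. Without WT replicate ds1 the split was 155 higher and 146 lower, without WT replicate 3 it was 75 and 263, and without Het_Nrp1- replicate 4 it was 66 and 614; 0 genes passed the adjusted test in each of these fits. Het_Nrp1- samples all lay above all WT samples for 67 genes (0.457%) and below them for 52 (0.355%). DESeq2 called 6 genes, all lower in Het_Nrp1-, where each was at or near 0; they are named further on.

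The samples bounded large differences only for genes at high levels. For the 2169 genes that averaged 100 CPM or more, the 95% interval of the log2 difference lay within 1 unit of 0, a 2-fold change either way, for 526 genes (24.2%), and 2 of them were higher and 7 lower at an unadjusted p below 0.05. Between 10 and 100 CPM that held for 20 of 6183 genes, with a median distance of the interval's ends from its centre of 1.64. The median biological coefficient of variation, estimated over all 41 samples of the fit and not the 9 compared, was 0.984. The median log2 difference of all tested genes was -0.12, and 43.4% of genes lay above 0. Without WT replicate ds1 the median was -0.00 and 49.7% lay above 0, and without WT replicate 3 the median was -0.01.

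**Figure D2:**
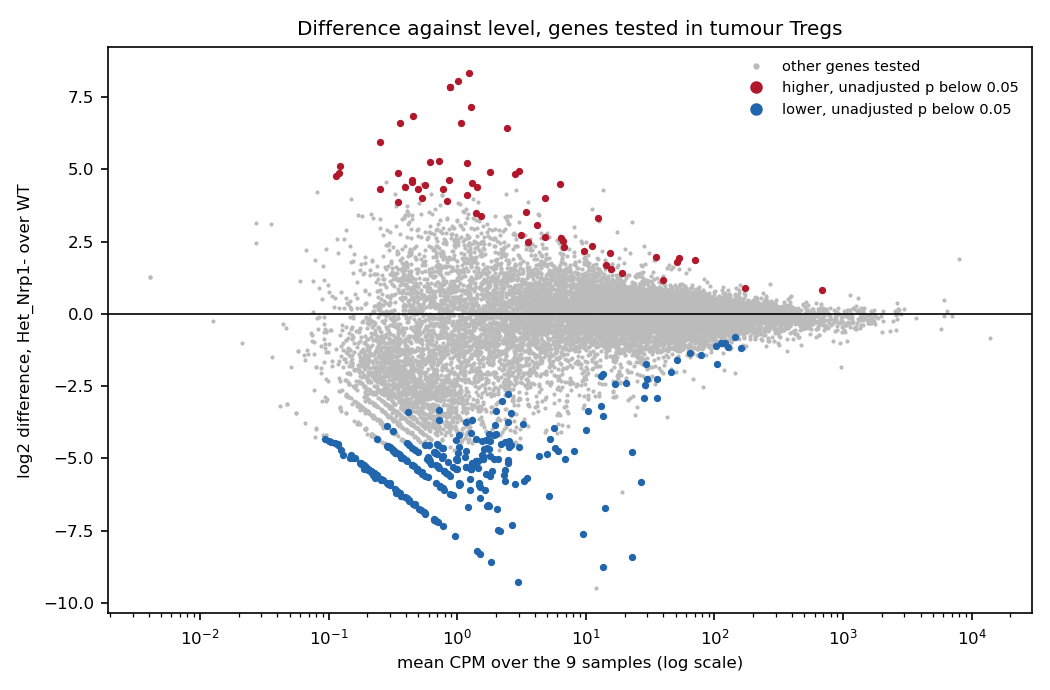
Log2 difference of Het_Nrp1- over WT (vertical) against the mean CPM of the 9 samples (horizontal, log scale) for the 14668 genes tested. Coloured points have an unadjusted p below 0.05, 60 higher in red and 281 lower in blue, and most of them lie below 10 CPM; none passed the adjusted threshold.

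Nrp1 itself (chromosome 8, 128358604 to 128503363, plus strand in mm10, GENCODE vM21) was at 119, 259.5, 133 and 105 CPM in Het_Nrp1- and at 131, 212, 103, 290.3 and 118 CPM in WT. The groups overlapped over their whole range, with means of 154 ± 71.2 CPM in Het_Nrp1- and 171 ± 78.9 CPM in WT (SD, n = 4 and 5), and a log2 difference of -0.15 (SE 0.45, 95% interval -1.06 to 0.76). A count over the whole gene does not check the deletion, because the labels do not say which exons are removed and a shortened transcript would still be counted. In effector T cells of tumours Nrp1 stood at 13.1 ± 6.59 CPM (SD, n = 5).

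Partners of Nrp1 showed no called change. Of the 23 listed semaphorins, plexins, neuropilins and linked receptors, 21 were tested and 7 lay above 0 and 14 below, with a median log2 difference of -0.15, beside -0.12 over all genes. Sema4a, a ligand of Nrp1 on Tregs, was at 66.2, 55.9, 4.18 and 43.7 CPM in Het_Nrp1- and at 25.1, 57.2, 71.7, 25.2 and 27.3 CPM in WT. One Het_Nrp1- sample, ds2, lay below every other value, and the remaining values overlapped (log2 difference 0.04, SE 0.74). Sema4d, a semaphorin that signals through plexin B1 and CD72, ranged over 202 to 509.6 CPM in Het_Nrp1- and 127 to 499 CPM in WT, and Plxna1, a plexin that pairs with neuropilins, over 1.23 to 4.87 CPM in Het_Nrp1- and 3.82 to 20.1 CPM in WT (log2 difference -1.84, SE 1.35, an unadjusted p of 0.178). Nrp2, the paralog of Nrp1, was at 0.381, 0, 0 and 7.21 CPM in Het_Nrp1- and at 0.887, 4.21, 4.48, 0.212 and 0.691 CPM in WT. The transcripts of lowest p in the list were Plxna2, at no more than 0.297 CPM in Het_Nrp1- and at 9.17 CPM in WT replicate ds1 but at most 0.803 CPM in the other WT samples, and Flt1, a receptor of vascular growth factor, at 0.381, 0.151, 0 and 0.0743 CPM in Het_Nrp1- and 4.27, 0.0739, 3.41, 0 and 0.461 CPM in WT.

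**Figure D3:**
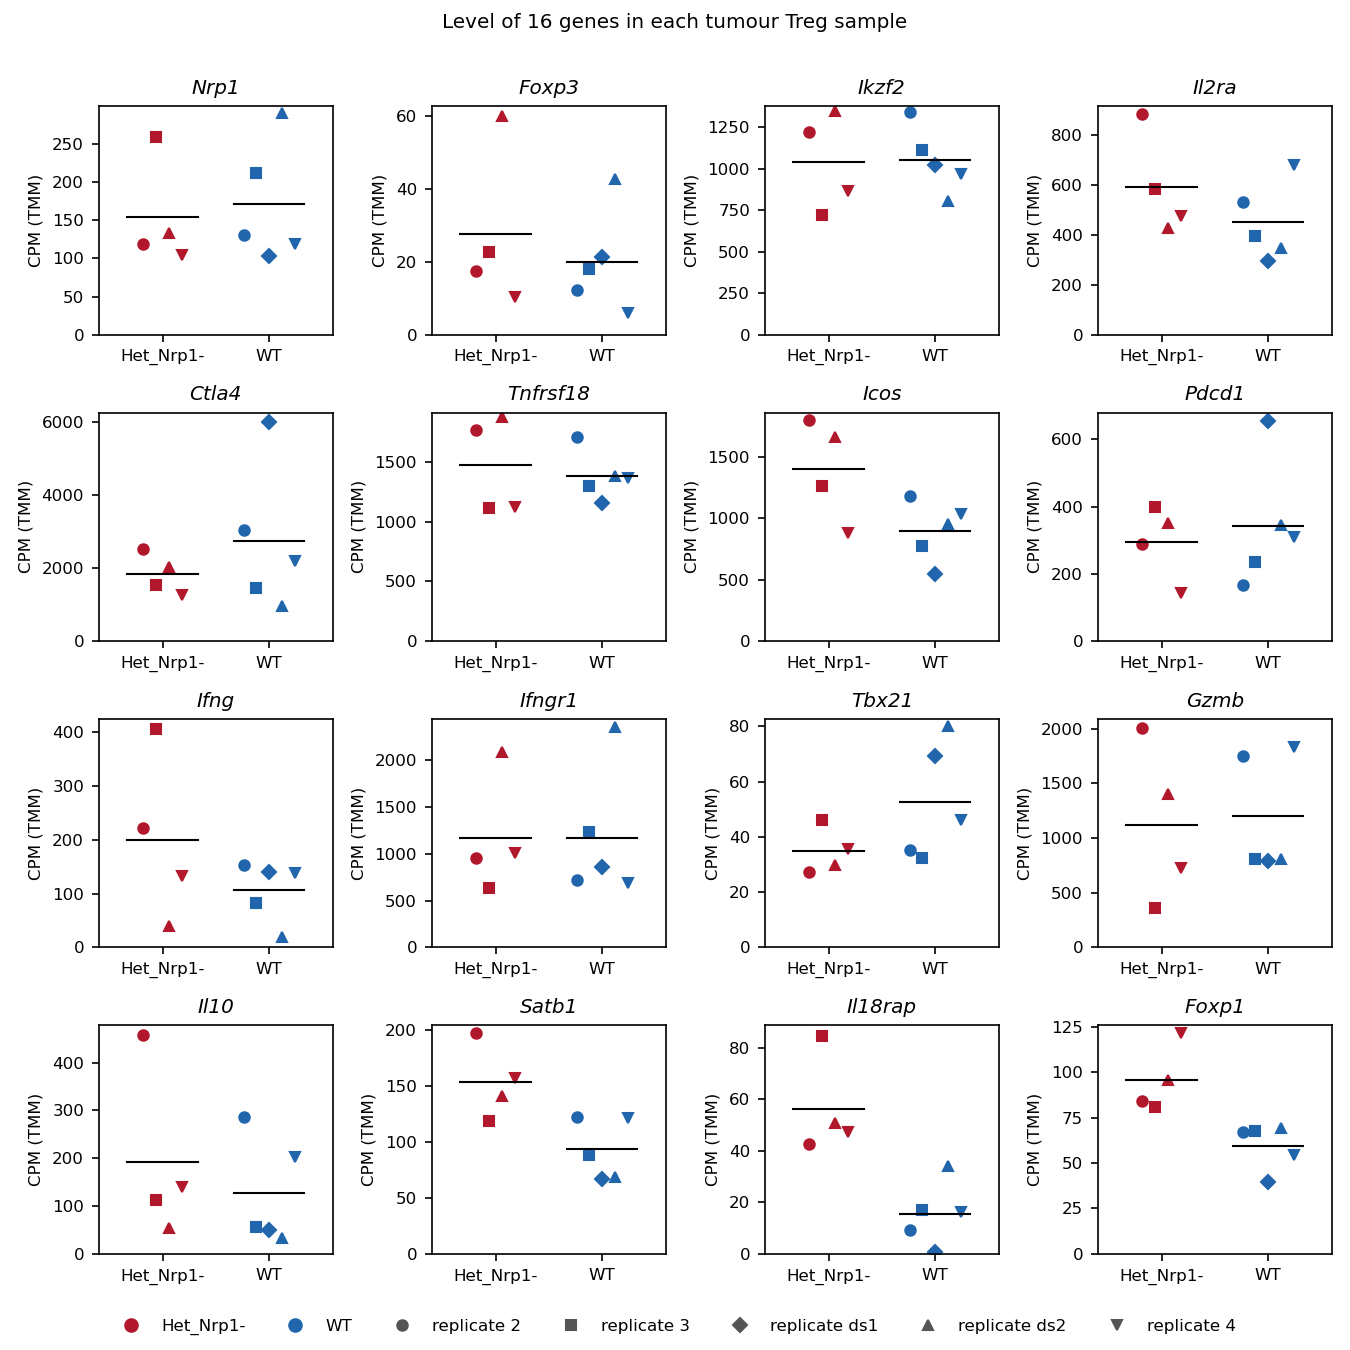
CPM (vertical) of 16 genes in each tumour Treg sample, Het_Nrp1- at left in red and WT at right in blue, 1 symbol shape per replicate and a black line at each group's mean. Only the panels of Il18rap and Foxp1 show groups that do not overlap.

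No gene of Treg identity passed the test, and the list divided almost evenly about 0: 11 of 20 tested members lay above 0 and 9 below, with a median of 0.10 (interquartile range -0.21 to 0.42) and none at an unadjusted p below 0.05. Foxp3 was at 17.6, 22.6, 60.0 and 10.4 CPM in Het_Nrp1- and at 12.2, 18, 21.3, 42.6 and 5.99 CPM in WT (chromosome X, 7573644 to 7595245, plus strand). In both groups ds2 was highest and replicate 4 lowest, and the log2 difference of 0.46 (SE 1.25, 95% interval -2.04 to 2.97) allows a fall or a rise of over 4-fold. Ikzf2, which encodes the Treg transcription factor Helios, was at 1221, 722, 1344 and 867 CPM in Het_Nrp1- and at 1342, 1109, 1021, 805 and 970.1 CPM in WT, and its log2 difference was -0.02 (SE 0.37, 95% interval -0.77 to 0.74). Tnfrsf18 (GITR), a costimulatory receptor high on Tregs, was at 1768, 1117, 1875 and 1122 CPM in Het_Nrp1- and at 1708, 1300, 1155, 1386 and 1365 CPM in WT. Its log2 difference of 0.09 (SE 0.29, 95% interval -0.50 to 0.67) was among the best bounded of the panel. Il2ra, the alpha chain of the interleukin-2 receptor, was at 888, 583, 429.5 and 477 CPM in Het_Nrp1- and at 532, 396, 296, 347 and 682 CPM in WT; 1 Het_Nrp1- sample exceeded all WT samples (log2 difference 0.40, SE 0.39, 95% interval -0.39 to 1.19).

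Ctla4, the receptor through which Tregs take the ligands of CD28 from other cells, was at 2510, 1534, 2019 and 1249 CPM in Het_Nrp1- and at 3031, 1464, 6002, 969 and 2198 CPM in WT. The highest value was that of WT replicate ds1, and the log2 difference moved to -0.06 without that sample, against -0.58 (SE 0.70) with it. Il2rb, the beta chain of the interleukin-2 receptor, ranged over 159.8 to 236 CPM in Het_Nrp1- and 181 to 671 CPM in WT (log2 difference -0.57, SE 0.52). Klrg1, a marker of differentiated effector Tregs, ranged over 51.4 to 168 CPM in Het_Nrp1- and 57.8 to 283 CPM in WT (log2 difference -0.61, SE 0.62).

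Suppressive and effector genes likewise passed no test. Of this list 12 of 21 tested members lay above 0 and 9 below, with a median of 0.07, and 1 of its members, Il12a, was at an unadjusted p below 0.05 in the lower direction. Il12a, a subunit of interleukin-12 and interleukin-35, had no count in any Het_Nrp1- sample and was at 0.338, 0, 0.427, 0 and 0.0768 CPM in WT, so both groups lay close to 0. Il10, an inhibitory cytokine, was at 457, 113, 54.9 and 140.4 CPM in Het_Nrp1- and at 287, 56.4, 50.8, 34 and 204 CPM in WT. Replicate 2 was highest in both groups, and the spread within a group was wider than the difference between them (log2 difference 0.60, SE 1.06, 95% interval -1.55 to 2.75). Gzmb, a granzyme through which Tregs can kill, was at 2007, 358, 1404 and 722 CPM in Het_Nrp1- and at 1750, 807, 794, 813 and 1835 CPM in WT, a log2 difference of -0.10 (SE 1.03). Prf1, the pore-forming partner of granzymes, was at 18.2, 47.7, 28.5 and 38.9 CPM in Het_Nrp1- and at 22, 25.8, 1.49, 15.9 and 13.5 CPM in WT. For Prf1 3 of 4 Het_Nrp1- samples exceeded every WT sample (log2 difference 1.08, SE 1.26, an unadjusted p of 0.396).

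Icos, a costimulatory receptor of effector Tregs (chromosome 1, 60977927 to 61000320, plus strand), did not pass the test. It was at 1798, 1266, 1663 and 883 CPM in Het_Nrp1- and at 1181, 771, 549, 951 and 1033 CPM in WT, so 3 of 4 Het_Nrp1- samples exceeded the highest WT sample. The log2 difference was 0.64 (SE 0.36, 95% interval -0.07 to 1.36), with an unadjusted p of 0.077 and an adjusted p of 1 in edgeR's test. Without WT replicate ds1 it was 0.52 (an unadjusted p of 0.174). Irf4 and Batf, which drive the effector Treg programme, ranged over 35.2 to 112 CPM in Het_Nrp1- and 26.9 to 56.7 CPM in WT and over 122 to 204 CPM in Het_Nrp1- and 81.9 to 155 CPM in WT, log2 differences of 0.89 (SE 0.68) and 0.54 (SE 0.57). Prdm1 (Blimp-1) ranged over 99.8 to 229 CPM in Het_Nrp1- and 80.0 to 142 CPM in WT, Ebi3, the other subunit of interleukin-35, over 38.8 to 71.6 CPM in Het_Nrp1- and 40.5 to 94.5 CPM in WT, and Tgfb1 over 2.19 to 24.1 CPM in Het_Nrp1- and 0.154 to 52 CPM in WT. Tnfrsf9 (4-1BB), an activation receptor, ranged over 674 to 1348 CPM in Het_Nrp1- and 711 to 1654 CPM in WT, a log2 difference of -0.27 (SE 0.44). None of the 6 lay at an unadjusted p below 0.05.

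Checkpoint receptors and their ligands had the highest median of the 17 programme lists with all samples, though not without WT replicate ds1. There 10 of 14 tested members lay above 0 and 4 below, with a median of 0.57, and 1 was at an unadjusted p below 0.05. That gene was Cd200, a surface glycoprotein that calms myeloid cells through its receptor, at 64.4, 143, 24.8 and 105 CPM in Het_Nrp1- and at 25.8, 38.2, 1.28, 32.7 and 25 CPM in WT (log2 difference 1.78, SE 0.84, 95% interval 0.10 to 3.46, an unadjusted p of 0.0381 and an adjusted p of 1 in edgeR's test). Of its Het_Nrp1- samples 3 exceeded all WT samples, and ds2 did not. Cd160, a receptor of the herpesvirus entry mediator, was at 13.5, 47.8, 7.13 and 26.3 CPM in Het_Nrp1- and at 1.86, 10.9, 0.64, 8.06 and 11.4 CPM in WT, again with 3 of 4 Het_Nrp1- samples above every WT sample (log2 difference 1.85, SE 1.11). Over the 9 well-measured members, those with an SE below 1, the median was 0.02, and without WT replicate ds1 the median of all 14 was 0.27.

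Other checkpoint receptors overlapped between the groups. Pdcd1 (PD-1) was at 288, 398, 352 and 144 CPM in Het_Nrp1- and at 167, 236, 654, 346 and 309 CPM in WT, with the highest value in WT replicate ds1 and a log2 difference of -0.21 (SE 0.58, 95% interval -1.38 to 0.95), which was 0.17 without that sample. Havcr2 (TIM-3) was at 118, 123, 51.4 and 52.2 CPM in Het_Nrp1- and at 58.4, 73.5, 8.11, 47.5 and 77.4 CPM in WT, and 2 Het_Nrp1- samples, replicates 2 and 3, exceeded all WT samples (log2 difference 0.70, SE 0.94). Lag3 was at 46, 32.4, 11.1 and 8.77 CPM in Het_Nrp1- and at 31.1, 4.21, 25.8, 9.55 and 3.76 CPM in WT, also with 2 samples above the WT range (log2 difference 0.72, SE 1.06). Tigit ranged over 109 to 421 CPM in Het_Nrp1- and 5.97 to 347 CPM in WT.

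The interferon-gamma axis was the one named in the title of the series. Ifng (chromosome 10, 118441046 to 118445892, plus strand) was at 221, 405, 39.6 and 132 CPM in Het_Nrp1- and at 154, 82.2, 141, 20.2 and 138 CPM in WT. Replicates 2 and 3 of Het_Nrp1- exceeded every WT sample, ds2 was the lowest sample of each group, and the means were 199 ± 156 and 107 ± 55.8 CPM (SD, n = 4 and 5). The log2 difference was 0.90 (SE 1.24, 95% interval -1.62 to 3.42), with an unadjusted p of 0.473, so a difference of the size seen could not be told from none at this spread. Ifngr1, the ligand-binding chain of the receptor, was at 958, 639.9, 2094 and 1006 CPM in Het_Nrp1- and at 724, 1232, 859, 2357 and 685 CPM in WT, a log2 difference of 0.00 (SE 0.40, 95% interval -0.79 to 0.80). Both groups had their highest Ifngr1 value in ds2, and the interval excluded a 2-fold change either way.

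Of the 20 genes listed for interferon-gamma and type 1 T cells, 13 lay above 0 and 7 below, with a median of 0.25 (0.10 without WT replicate ds1). Il18rap, the accessory chain of the interleukin-18 receptor (chromosome 1, 40515362 to 40551705, plus strand), was at 42.5, 84.5, 50.9 and 47.3 CPM in Het_Nrp1- and at 9.38, 17.1, 0.64, 34.2 and 16.2 CPM in WT. Every Het_Nrp1- sample exceeded every WT sample; with Foxp1 it made 2 such genes among the 367 tested members of all lists (0.545%), beside 0.457% of all genes. Its log2 difference was 1.86 (SE 1.21, 95% interval -0.56 to 4.29), with an unadjusted p of 0.129. Ifng, Il18rap and Prf1 are also genes of NK cells, whose marker sum was 253, 166, 4.18 and 423 CPM in Het_Nrp1- and 61.1, 58.2, 41.4, 2.55 and 193 CPM in WT. Of the tested NK markers 5 of 7 lay above 0 (median log2 difference 1.59). Their sum was lowest in ds2 of each group, where Ifng was also lowest but Il18rap and Prf1 were not. The part of NK cells was not tested. Il18r1, the chain it joins, overlapped, with 181, 191, 228 and 108 CPM in Het_Nrp1- and 174, 148, 52.9, 204 and 134 CPM in WT. Tbx21, which encodes T-bet, the transcription factor of type 1 T cells, was at 27.4, 46.1, 29.8 and 35.7 CPM in Het_Nrp1- and at 35.2, 32.4, 69.3, 80.0 and 46.2 CPM in WT, a log2 difference of -0.60 (SE 0.93), and Cxcr3, a chemokine receptor under its control, ranged over 339 to 438 CPM in Het_Nrp1- and 262 to 637 CPM in WT. Il12rb2, a chain of the interleukin-12 receptor, was at 1.52, 2.79, 46.7 and 2.9 CPM in Het_Nrp1- and at 22.1, 15.4, 1.71, 6.37 and 3.92 CPM in WT; ds2 was the only Het_Nrp1- sample above 2.9 CPM. Hlx, a homeobox factor of type 1 T cells and the other member of lowest p, stayed at no more than 0.0754 CPM in Het_Nrp1- and 1.07 CPM in WT.

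Genes that interferon-gamma induces had small log2 differences of either sign. Of 30 such genes 10 lay above 0 and 20 below, with a median of -0.09 and an interquartile range of -0.18 to 0.10, narrower than for the other programme lists apart from that of oxidative phosphorylation. For 11 of the 30 the 95% interval excluded a 2-fold change. Irf1, a transcription factor that interferon-gamma induces, was at 473, 389.5, 381 and 344 CPM in Het_Nrp1- and at 396, 479, 430.1, 515 and 387 CPM in WT, a log2 difference of -0.15 (SE 0.31, 95% interval -0.77 to 0.47). Cxcl9, a chemokine that recruits T cells through Cxcr3, was the member of lowest p, at 41.9, 10.9, 0 and 10.8 CPM in Het_Nrp1- and at 1.01, 5.32, 0.853, 1.7 and 0.845 CPM in WT (log2 difference 3.01, SE 1.71, 95% interval -0.42 to 6.45), while Cxcl10, which binds the same receptor, was at 41.9, 33.4, 37.9 and 85.5 CPM in Het_Nrp1- and at 76.8, 130.2, 64.8, 53.7 and 210.0 CPM in WT (log2 difference -1.11, SE 1.15). Both chemokines are also made by myeloid cells. Iigp1, an interferon-induced GTPase, ranged over 379 to 628 CPM in Het_Nrp1- and 543 to 1084 CPM in WT (log2 difference -0.51, SE 0.38). In the type I interferon list 8 of 25 tested members lay above 0 and 17 below, with a median of -0.18, against 12 above 0 and a median of -0.01 without WT replicate 3. Irf9 and Usp18, its members of lowest p, had log2 differences of -0.36 (SE 0.35) and -0.51 (SE 0.57).

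**Figure D4:**
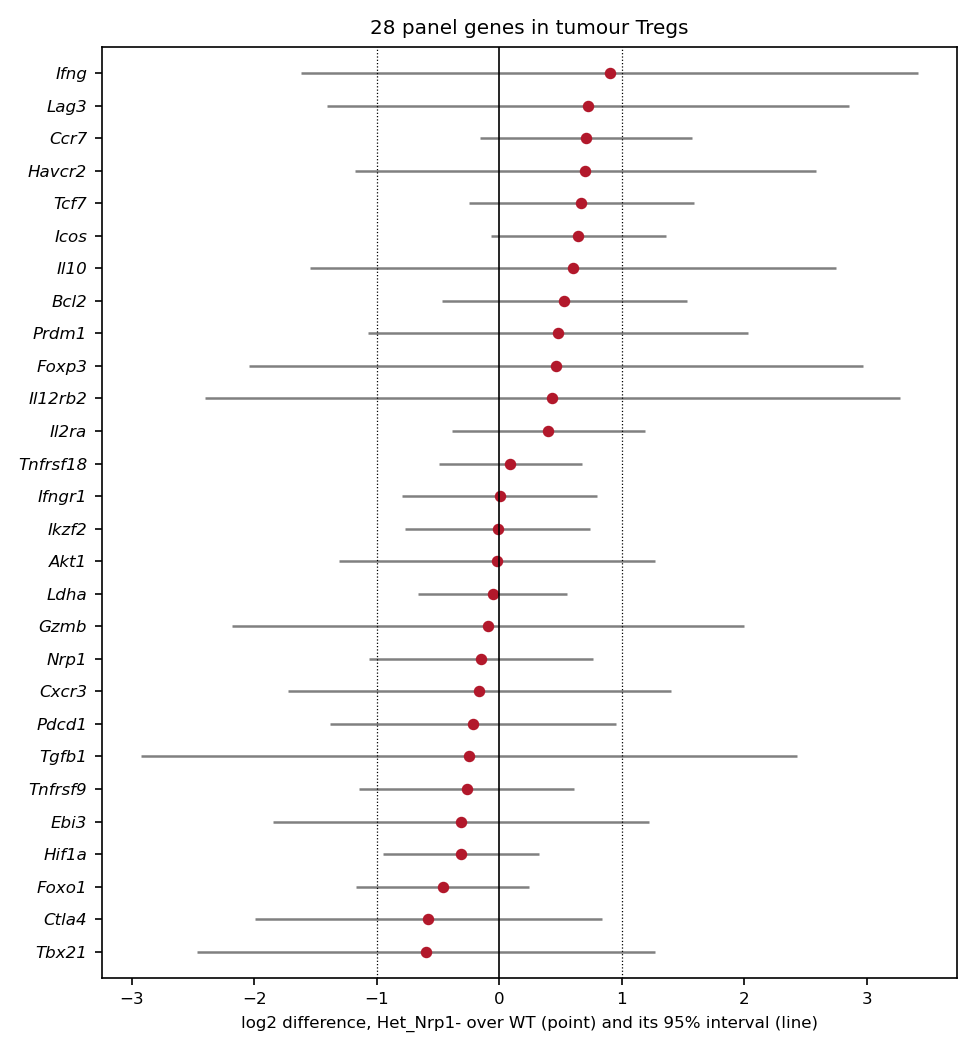
Log2 difference of Het_Nrp1- over WT (horizontal; point) with its 95% interval (line) for 28 genes of the panel, sorted by the difference; dotted lines mark 2-fold either way. All 28 intervals cross 0, and 5 of them lie within the dotted lines.

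Over the panel of 30 genes, 16 genes lay above 0 and 14 below, no gene had groups that did not overlap, and 74 of 120 single values of Het_Nrp1- samples fell within the range of the WT samples, with 26 above it and 20 below. The intervals of 5 genes, Ifngr1, Ikzf2, Tnfrsf18, Hif1a and Ldha, excluded a 2-fold change.

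Along the Akt, mTOR and Foxo axis, 11 of 25 tested members lay above 0 and 14 below, with a median of -0.02, and none was at an unadjusted p below 0.05. Without WT replicate ds1 the balance turned, with 15 of 25 above 0 and a median of 0.15. Akt1 was at 57.5, 66.3, 54.6 and 62 CPM in Het_Nrp1- and at 59.4, 61, 90.9, 46 and 47.4 CPM in WT, a log2 difference of -0.02 (SE 0.64) that was 0.17 without WT replicate ds1. Foxo1, a factor that Akt keeps out of the nucleus and that sustains naive and homing genes, was at 214, 121, 133 and 162 CPM in Het_Nrp1- and at 200.5, 217, 259, 186 and 222 CPM in WT; 3 Het_Nrp1- samples lay below every WT sample, and the log2 difference was -0.46 (SE 0.35, 95% interval -1.17 to 0.24).

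Among genes of naive cells and of lymphoid homing 12 of 19 tested members lay above 0 and 7 below, with a median of 0.45, which was 0.41 without WT replicate ds1. Satb1, a chromatin organiser of T cells, was at 198, 119, 141 and 157 CPM in Het_Nrp1- and at 123, 88.7, 67.4, 69 and 122 CPM in WT, with 3 of 4 Het_Nrp1- samples above the WT range (log2 difference 0.71, SE 0.38, 95% interval -0.06 to 1.48). Foxp1, a forkhead factor of quiescent T cells (chromosome 6, 98925338 to 99522721, minus strand), was at 84.2, 81.1, 95.7 and 122 CPM in Het_Nrp1- and at 66.9, 67.9, 39.7, 69.4 and 54.5 CPM in WT. All its Het_Nrp1- samples exceeded all WT samples, though by little, and the log2 difference was 0.68 (SE 0.40, 95% interval -0.13 to 1.49) with an unadjusted p of 0.0962 and an adjusted p of 1 in edgeR's test. Ccr7, the receptor that guides T cells within lymph nodes, was at 33.9, 16.7, 110.0 and 23.1 CPM in Het_Nrp1- and at 19.3, 31.9, 10.7, 41.8 and 36.3 CPM in WT; ds2 was the only Het_Nrp1- sample above the WT range (log2 difference 0.71, SE 0.43). Tcf7 and Lef1, paired factors of naive and memory T cells, had log2 differences of 0.67 (SE 0.46) and -0.73 (SE 0.52). Lef1 stood at 452 CPM in WT replicate ds1, and its difference was 0.21 without that sample. Bcl2, which protects from cell death, ranged over 40.1 to 98.2 CPM in Het_Nrp1- and 8.75 to 67.7 CPM in WT.

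Lipid and sterol synthesis had the lowest median of the 17 programme lists, also without WT replicates ds1 or 3, without Het_Nrp1- replicate 4 and under median-ratio scaling. There 3 of 23 tested members lay above 0 and 20 below, with a median of -0.42 (interquartile range -0.79 to -0.15), beside 43.4% of all genes above 0. None of the 23 was at an unadjusted p below 0.05. Summed over the list, the level was 1161, 1208, 1207 and 1904 CPM in Het_Nrp1- and 1759, 1759, 2223, 1721 and 1888 CPM in WT. The samples 2, 3 and ds2 of Het_Nrp1- lay below all WT samples, and replicate 4 lay among them. Without WT replicate ds1 1 of 23 members lay above 0 and the median was -0.54; it was -0.29 without WT replicate 3, -0.56 without Het_Nrp1- replicate 4 and -0.44 under median-ratio scaling.

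Fdps, which makes the farnesyl diphosphate used for sterols and for attaching proteins to membranes, was at 52.8, 80.7, 97.2 and 177 CPM in Het_Nrp1- and at 194, 211, 383, 141 and 159.8 CPM in WT; 3 Het_Nrp1- samples lay below all WT samples (log2 difference -1.09, SE 0.70, 95% interval -2.50 to 0.31). Insig1, which holds the sterol sensor in the endoplasmic reticulum and is itself induced when sterols run low, was at 24.9, 23, 22.9 and 38.6 CPM in Het_Nrp1- and at 27, 66.8, 48.4, 116 and 48.9 CPM in WT, again with 3 samples below the WT range (log2 difference -1.17, SE 0.78, 95% interval -2.74 to 0.40). Hmgcs1, an early enzyme of the pathway, was at 48.8, 63.2, 128 and 179.8 CPM in Het_Nrp1- and at 138, 134, 320.0, 154 and 198 CPM in WT (log2 difference -0.85, SE 0.73). Fasn, the fatty acid synthase, and Acly, which supplies it with acetyl-CoA, had log2 differences of -0.10 (SE 0.59) and 0.13 (SE 0.46). Het_WT and N samples are set beside the same WT samples, so these differences share their control: the median of the list was -0.58 for Het_WT over WT and -0.61 for N over WT, and 0.03 for Het_Nrp1- over Het_WT.

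Among glycolysis and hypoxia genes 10 of 27 tested members lay above 0 and 17 below, with a median of -0.15. Above 0 were 13 of 27 without WT replicate 3, with a median of -0.00. Ldha, which turns pyruvate into lactate, was at 1697, 1894, 1490 and 1774 CPM in Het_Nrp1- and at 1864, 1847, 1812, 1648 and 1732 CPM in WT, and its log2 difference was -0.06 (SE 0.30, 95% interval -0.66 to 0.55). Hif1a, the oxygen-regulated transcription factor, was at 1295, 932, 1315 and 959.9 CPM in Het_Nrp1- and at 1273, 1037, 1704, 1621 and 1357 CPM in WT (log2 difference -0.31, SE 0.32, 95% interval -0.95 to 0.33). P4ha1, a collagen prolyl hydroxylase that hypoxia induces, had the lowest p of the list, 0.0817 as an unadjusted value, and averaged 143 ± 51.3 CPM in Het_Nrp1- and 260.3 ± 224 CPM in WT (SD, n = 4 and 5), the highest value being that of WT replicate ds1. Its log2 difference of -0.86 (SE 0.48) was -0.17 without that sample. Bnip3l, a mitophagy receptor induced by hypoxia, ranged over 179.9 to 221 CPM in Het_Nrp1- and 197 to 484 CPM in WT. In oxidative phosphorylation 11 of 31 tested members lay above 0 and 20 below, with a median of -0.08 (0.02 without WT replicate 3); its members of lowest p, the complex I subunits Ndufc2 and Ndufb3, had log2 differences of -0.89 (SE 0.60) and -0.71 (SE 0.61), which were 0.10 and -0.11 without WT replicate ds1.

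The remaining lists held few genes near the threshold. Among genes of T cell receptor signalling 13 of 26 tested members lay above 0 and 13 below, with a median of 0.04 (-0.11 under median-ratio scaling and -0.12 without WT replicate 3), and the members of lowest p were Tox and Tox2, HMG-box factors of chronically stimulated T cells. Tox was at 109, 323, 89.3 and 149.5 CPM in Het_Nrp1- and at 129.8, 128, 5.55, 134 and 76.7 CPM in WT (log2 difference 0.82, SE 0.62). Proliferation genes gave 13 above 0 of 30 with a median of -0.08, against 19 of 30 and 0.07 without WT replicate ds1. Mcm7, a helicase subunit, had a log2 difference of -0.89 (SE 0.60) that was 0.17 without WT replicate ds1. Ccne2, a cyclin of the entry into DNA synthesis, ranged over 2.19 to 19.9 CPM in Het_Nrp1- and 0.213 to 7.43 CPM in WT. Of the apoptosis and survival genes 6 of 21 lay above 0 (median -0.21), with the lowest p for Pmaip1 (Noxa), which promotes cell death, and Bcl2a1b, which opposes it; both had their highest value in WT replicate ds1. Ccr6, the receptor of Ccl20, stood out in the chemokine list and in that of other T helper programmes. It was at 3.81, 10.5, 17.7 and 16.9 CPM in Het_Nrp1- and at 2.2, 2.85, 1.07, 5.94 and 0.384 CPM in WT, with 3 of 4 Het_Nrp1- samples above every WT sample, a log2 difference of 2.30 (SE 1.07, 95% interval 0.15 to 4.46) and an unadjusted p of 0.0367 and an adjusted p of 1 in edgeR's test. Ccl22, a chemokine that attracts Tregs, and Il23r, a receptor of Th17 cells, were the next of these lists and stayed at or below 2.56 CPM and 9.37 CPM in every sample. The chemokine list gave 15 of 28 above 0 with a median of 0.09, which was -0.05 under median-ratio scaling, and the list of other T helper programmes 6 of 15 with -0.09.

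**Figure D5:**
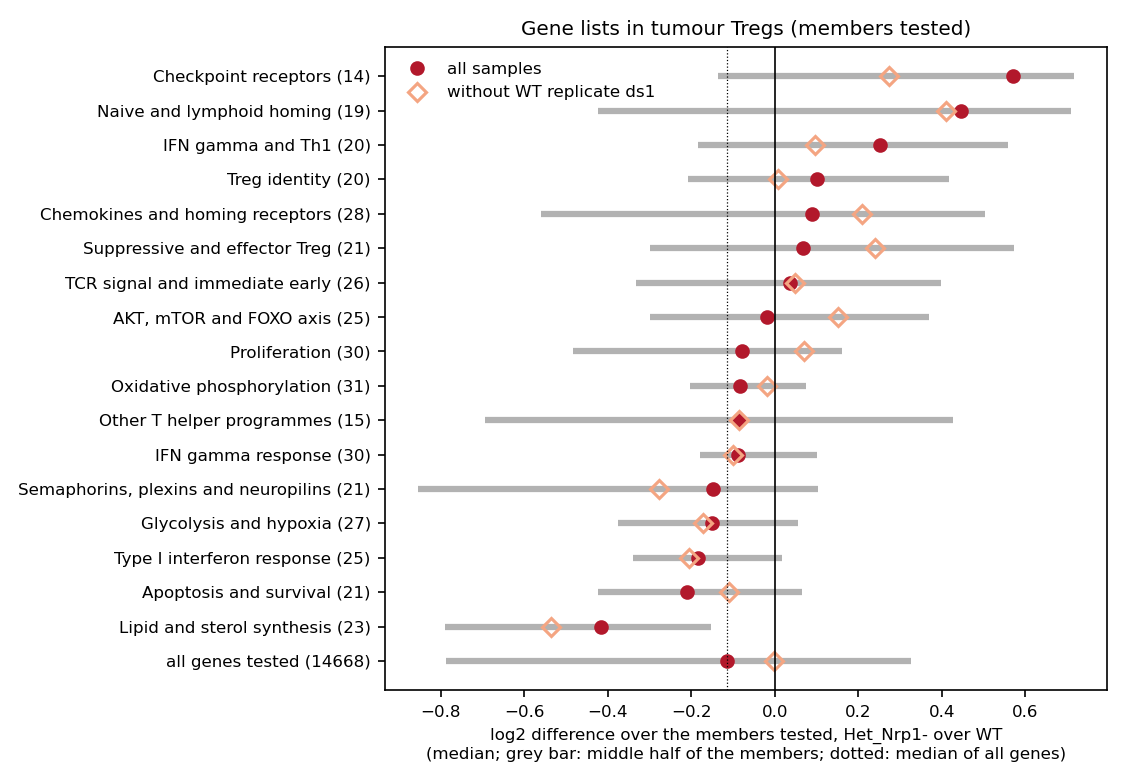
Median log2 difference of Het_Nrp1- over WT (horizontal) of the tested members of 17 gene lists and of all 14668 genes, with all samples (red points) and without WT replicate ds1 (open diamonds); grey bars span the interquartile range of the members. Checkpoint receptors (0.57) lie highest and lipid and sterol synthesis (-0.42) lowest.

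Across all 17 lists together, 2 of 367 tested genes were higher at an unadjusted p below 0.05 (0.545%, Cd200 and Ccr6) and 1 was lower (Il12a), beside 0.409% and 1.92% of all genes. Without WT replicate ds1 none of these 3 remained below 0.05, with an unadjusted p of 0.0858 for Cd200, 0.0717 for Ccr6 and 0.0626 for Il12a. A gene held by several lists was counted once.

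The genes of lowest unadjusted p were mostly near 0, and none of them passed the adjusted test. In the higher direction the 10 lowest p belonged to LOC100038947, Procr, Klrc2, Mir697, Tbc1d4, Gpr141, Cd209a, Gcg, Mmp11 and Mir3068. Of these Tbc1d4 alone averaged above 10 CPM. Tbc1d4 (AS160), a Rab GTPase-activating protein that controls glucose transporter traffic, was at 67.1, 178, 33.2 and 82.5 CPM in Het_Nrp1- and at 4.69, 26.4, 16.9, 42.9 and 28.3 CPM in WT (chromosome 14, 101442360 to 101609191, minus strand). Of its Het_Nrp1- samples 3 exceeded all WT samples, with a log2 difference of 1.93 (SE 0.63, 95% interval 0.66 to 3.19) and an unadjusted p of 0.00365 and an adjusted p of 1 in edgeR's test. Its log2 difference over WT was 1.93 in Het_WT and 1.79 in N, against the same WT samples. Klrc2, a receptor of NK cells, was at 2.48, 7.13, 0 and 1.49 CPM in Het_Nrp1- and had no count in any WT sample. It had no count in ds2, the Het_Nrp1- sample with the lowest sum of NK markers. Its highest value was in replicate 3, with an NK marker sum of 166 CPM, and not in replicate 4, with 423 CPM. The part of NK cells was not tested. Cd209a, a lectin of dendritic cells, was at 3.05, 8.14, 0 and 10.3 CPM in Het_Nrp1- and at 0, 0, 0.427, 0 and 0 CPM in WT. Het_Nrp1- replicate 4, its highest sample, also had the highest sum of dendritic cell markers, 455 CPM, while Het_Nrp1- replicate 3 had 44.8 CPM, inside the WT range; the part of those cells was not tested.

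In the lower direction the 10 lowest p belonged to Fahd1, Rpl39l, 4430402I18Rik, 2610204G22Rik, Frk, Gzmf, Adam1a, Car11, Gm12359 and A730090N16Rik. Fahd1, a mitochondrial hydrolase, was at 0, 0, 0 and 0.371 CPM in Het_Nrp1- and at 3.59, 4.07, 188, 1.91 and 9.53 CPM in WT. Rpl39l, a paralog of a ribosomal protein gene whose reads may be shared with it, was at 0, 0, 0 and 0.149 CPM in Het_Nrp1- and at 2.54, 1.03, 112, 0 and 5.61 CPM in WT. Most of the WT level of both came from replicate ds1. Gzmf, one of the clustered granzyme genes, had no count in any Het_Nrp1- sample and was at 6.84, 0.222, 1.49, 0 and 7.91 CPM in WT. Frk, a Src-related kinase, likewise had none, against 0.0845, 2.66, 1.49, 0 and 22.4 CPM in WT. Adam1a, a sperm metalloprotease, was at 0, 0, 0 and 0.0371 CPM in Het_Nrp1- and 0.507, 1.85, 1.49, 2.55 and 1.92 CPM in WT. DESeq2, at the same adjusted threshold, called Fahd1, Rpl39l and 2610204G22Rik, and also Zfp72, Prss2 and Gm6377, which had no count in any Het_Nrp1- sample and reached 0.853, 0.592 and 11.5 CPM in WT at most.

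At 100 CPM or more, 2 genes were higher at an unadjusted p below 0.05 and 7 lower, of 2169; these were looked up after the values were seen. Itgb1, the beta 1 integrin, was at 757, 1206, 775 and 912 CPM in Het_Nrp1- and 466, 694, 204, 810.3 and 391 CPM in WT (log2 difference 0.83, SE 0.36). Ugcg, which makes glucosylceramide, was at 318, 227, 105 and 289 CPM in Het_Nrp1- and 153, 144, 49.5, 84.7 and 194 CPM in WT (log2 difference 0.91, SE 0.43). WT replicate ds1 had the lowest value of both. Among those lower, Tuba1a, an alpha tubulin, was at 98.7, 91, 93 and 124 CPM in Het_Nrp1- and 146, 142, 227, 164 and 206 CPM in WT (log2 difference -0.80, SE 0.38). Its groups did not overlap. Pdcd4, an inhibitor of translation, was at 76.3, 72.2, 69.9 and 86.4 CPM in Het_Nrp1- and 50.6, 64.9, 581, 84.9 and 55.8 CPM in WT, and among the WT samples only replicate ds1 exceeded all Het_Nrp1- samples. Erdr1, a gene of the shared end of the X and Y chromosomes, was singled out after its values were seen. It was at 49.1, 21.3, 8.12 and 20.3 CPM in Het_Nrp1- and at 1.82, 6.36, 2.99, 0 and 1.07 CPM in WT, without overlap (log2 difference 3.31, SE 1.28, 95% interval 0.75 to 5.88, an unadjusted p of 0.0124). Its copies are poorly resolved in the mouse assembly, so its counts are uncertain.

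Het_Nrp1- Tregs were next set beside Het_WT Tregs, the Nrp1-sufficient cells of heterozygous tumours. Of 14668 genes 0 (0%) passed, where edgeR's lowest adjusted p was 1, and 156 genes were higher and 135 lower at an unadjusted p below 0.05; DESeq2 called 8. Nrp1 averaged 154 ± 71.2 CPM in Het_Nrp1- and 155 ± 59.3 CPM in Het_WT (SD, n = 4 each), a log2 difference of -0.01 (95% interval -0.96 to 0.95). Het_Nrp1- over Het_WT was 0.25 (95% interval -2.41 to 2.92) for Ifng, -0.02 (95% interval -2.67 to 2.63) for Foxp3, -0.27 (95% interval -1.03 to 0.49) for Icos, -1.22 (95% interval -3.20 to 0.75) for Tbx21 and -0.19 (95% interval -1.04 to 0.66) for Foxp1.

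For a few of the genes described above, the Het_WT and N samples stood beside the same 5 WT samples as follows, and none of these differences passed the adjusted test. The log2 differences over WT of Icos were 0.64 for Het_Nrp1-, 0.91 for Het_WT and 0.84 for N. Those of Satb1 were 0.71 for Het_Nrp1-, 0.69 for Het_WT and 0.55 for N. Il18rap gave 1.86 for Het_Nrp1-, 1.16 for Het_WT and 1.84 for N; its level was 34.5 ± 39.7 CPM in Het_WT (n = 4) and 55.5 ± 23.9 CPM in N (SD, n = 5). Foxp1 gave 0.68 for Het_Nrp1-, 0.87 for Het_WT and 0.53 for N. Cd200 gave 1.78 for Het_Nrp1-, 1.37 for Het_WT and 1.46 for N. Ccr6 gave 2.30 for Het_Nrp1-, 1.53 for Het_WT and 2.135 for N. Ifng gave 0.90 for Het_Nrp1-, 0.65 for Het_WT and 1.42 for N, with 167 ± 219 CPM in Het_WT and 287 ± 215 CPM in N. The 3 sets of values share the WT samples, so that like signs among them are no separate evidence.

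Whether the genotype difference depended on tissue was tested as the tumour difference minus the lymph node difference of Het_Nrp1- and WT. No gene passed (0 of 14668, 0%; lowest adjusted p 0.998 in edgeR's test), with 174 genes above 0 and 440 below at an unadjusted p below 0.05; DESeq2 called 25. In the lymph node Nrp1 was at 197 ± 96.4 CPM in Het_Nrp1- and 359.7 ± 64.2 CPM in WT (SD, n = 4 and 5). Set against the tumour values of 154 ± 71.2 and 171 ± 78.9 CPM, the difference of differences was 0.72 (95% interval -0.57 to 2.01). Ifng was at 7.32 ± 9.29 CPM in Het_Nrp1- and 3.84 ± 2.97 CPM in WT lymph node Tregs, a difference of differences of -0.04 (95% interval -3.52 to 3.44). Il18rap was at 4.47 ± 6.53 CPM in Het_Nrp1- and 16.7 ± 17.2 CPM in WT lymph node Tregs, the reverse of their order in the tumour, with a difference of differences of 3.76 (95% interval 0.24 to 7.29) and an unadjusted p of 0.0369 and an adjusted p of 0.998 in edgeR's test. Foxp1 was at 464 ± 263 and 457 ± 214 CPM in the lymph node Tregs of Het_Nrp1- and WT, and Icos at 367 ± 166 and 431 ± 95 CPM.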

How the data were processed

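RNA was sequenced from sorted T cells; libraries were made with SMARTer ultra-low input and Nextera XT kits and read on a NextSeq 500, per the labels' protocols. The authors deposited raw counts per gene (23420 genes, 45 libraries) and a log2 table of 10832 genes. The submitters' processing notes name STAR, featureCounts, limma and mm10; versions and the strand setting are not known here, so overlapping, antisense and paralogous genes are uncertain. In the deposited log2 values every gene has the same mean in each of the 5 replicate numbers, which is what an adjustment for that number leaves.

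Library pairs with a chi-square per degree of freedom under 5 were summed, giving 41 samples. Genes were filtered by group with filterByExpr and tested with edgeR 4.0.16 (TMM scaling, robust quasi-likelihood test, 9 groups in one fit, R 4.3.3, Benjamini-Hochberg adjustment, threshold 0.05). The procedure was tested on simulated data of a smaller spread than these samples have. That run therefore does not show what the test can find at the spread seen here. A 95% interval is the SE times the t quantile. CPM values carry TMM scaling, and since counts were not divided by gene length, levels are compared between samples, not between genes. Alternatives were median-ratio size factors, DESeq2 1.42.0, no filter on low counts, other treatments of the summed pair, only the groups compared, a replicate block, single-sorted samples only, limma 3.58.1 on the authors' log2 values, and samples left out in turn. Leaving out ds1 of every group or a lymph node sample, and recomputing list medians and counts at an unadjusted p, were chosen after seeing the data. The single-sorted fit and the fit without ds1 kept the summed Het_Nrp1- and Het_WT tumour samples, each of which holds a library titled ds1. Coordinates are from mm10 with GENCODE M21.

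Named genes are a panel of 30, the 2 members of lowest p in each list, and the 10 genes of lowest p in each direction, of which a few genes are not reported here; other list members are named for their role, and the genes called by DESeq2, the genes at 100 CPM or more, and Erdr1 after their values were seen. The groups and lists were chosen with earlier results of these data known. The total counts per sample limit the precision of low genes: where a gene has few counts, its interval spans several-fold changes.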

Additional observations from a re-analysis of the deposited data

Results flagged for a closer look

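Single samples far from the others of their group were sought in 116 sets of 4 or 5 values (Dixon's criterion at 95%). The sets were the genes of the panel and the list sums, and other named genes were not searched. Of these sets 10 held such a sample, and in 3 it was WT replicate ds1. Chance gives about 1 in 20. No explanation was tested for any of them. In Het_Nrp1-, Il12rb2, a chain of the interleukin-12 receptor, was at 46.7 CPM in replicate ds2, against 1.52 to 2.90 CPM in the other 3 samples. The summed interferon-gamma and Th1 list was at 9467 CPM in Het_Nrp1- replicate 2 and at 6996 to 7163 CPM in the others. The summed type I interferon list was at 5364 CPM in Het_Nrp1- replicate 3, below the 7269 to 7414 CPM of the others. Het_Nrp1- replicate 4 had 1904 CPM of lipid and sterol genes, against 1161 to 1208 CPM, and 454.7 CPM of dendritic cell markers, against 16.2 to 49.4 CPM.

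In WT, Tgfb1 was at 52.0 CPM in replicate ds2 and at 0.154 to 7.80 CPM in the other 4 samples, and endothelial markers were at 71.1 CPM in that replicate, against 14.6 to 30.9 CPM. WT replicate ds1 had 3713 CPM of apoptosis and survival genes (others 2030 to 2157 CPM), 44.6 CPM of fibroblast markers (others 1.70 to 6.09 CPM) and 8.32 CPM of granulocyte markers (others 0.849 to 2.16 CPM).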

How the results depend on the processing

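No gene passed the adjusted test of any of the 3 comparisons under the alternatives run, except with DESeq2, which called 6 genes for Het_Nrp1- over WT (0 higher, 6 lower), 8 for Het_Nrp1- over Het_WT and 25 for the tissue difference. With a sample left out in turn the counts of called genes ranged from 0 to 0 (9, 9 and 18 fits), with lowest adjusted p of 0.474, 1 and 0.560; limma on the authors' log2 values gave lowest adjusted p of 0.058, 0.0812 and 0.093. The limma fit kept the near-identical libraries apart. It also had no replicate term, though the log2 values look adjusted for replicate number, so its p-values may be too small. Counts at an unadjusted p below 0.05 moved more. The count of higher genes, 60, was 159 with no filter on low counts, 208 with single-sorted samples only, 278 with limma, 200 with ds1 left out of every group, and 54 to 155 with a sample left out, the highest without WT replicate ds1. The summed Het_Nrp1- sample, which holds the library titled ds1, stayed in the single-sorted fit and in the fit without ds1. The count of lower genes, 281, was 504 with DESeq2, 1180 with no filter, 149 with only the groups compared, and 146 to 614 with a sample left out, the lowest without WT replicate ds1 and the highest without Het_Nrp1- replicate 4. The cause was not tested.

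With a replicate block 0 genes passed in each comparison, and 143 were higher and 228 lower at an unadjusted p below 0.05. The labels do not tie replicate numbers to animals. Correlations of same-numbered deviations ran from 0.0555 to 0.44 against WT tumour samples (3 of 4 Het_Nrp1- samples correlated best with their own number), from 0.0809 to 0.413 against Het_WT (4 of 4), and from 0.117 to 0.463 between the lymph node groups (2 of 4). Only the last were all above 0.1, the limit set for taking numbers as pairs. Own-number matches in the tumour were also found against WT, whose Tregs came from other mice, so they need not mean pairs from one animal. Their source was not tested.

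Of 5137 log2 differences of the 248 genes with tabulated values under alternatives, 4933 moved by less than 1 SE, and 546 had the opposite sign; 105 genes kept their sign under all. Below 100 CPM the spread between samples limits what can be seen.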
